A study of Rattus norvegicus with 12 samples.

Results

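Vascular and trophic growth factors are secreted proteins that act on blood vessels, glia and neurons, and transcripts of 10 of them were followed in cultured rat oligodendrocyte precursor cells (OPCs). They are Vegfa, Vegfb, Vegfc, Pdgfa, Pdgfb, Mdk, Ptn, Hdgf, Fgf1 and Fgf2, found by symbol among the 30562 genes of the count table, where each symbol has 1 row. Mild-hypo-OPCs, which were kept at an inspired oxygen fraction (FiO2) of 5%, gave 6 libraries, and standard OPCs, which the labels put in room air, gave 6. All cells were wild type and came from the cortex of newborn Sprague-Dawley rats by shaking them off a mixed glial culture. The labels give 6 hours for the hypoxic exposure, whereas the methods describe days. The culture medium itself contained FGF-2 and PDGF-AA proteins, which are products of the genes Fgf2 and Pdgfa. The study describes fewer biological replicates for this experiment than the libraries deposited, and no source says which libraries share a culture. Each n, SD and p-value therefore counts libraries and measures only the spread between them, which may be technical, and p-values are too small if libraries share a culture.

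VEGF ligands signal through receptor tyrosine kinases that are found mainly on endothelial cells, where VEGF-A drives the growth and leakiness of vessels. PDGF-AA, a dimer of the Pdgfa product, is the classical mitogen of OPCs and acts through PDGFRα. Midkine and pleiotrophin are heparin-binding factors that bind PTPRZ1, a phosphatase of the OPC surface. Vegfa is a textbook target of hypoxia-inducible factors (HIFs), which bind the core letters ACGTG or GCGTG upstream of their targets.

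The letters ACGTG and GCGTG were searched on both strands in the 250 bases before the start that the RefSeq promoter table of the GRCr8 assembly lists for each gene. For Vegfb, Ptn and Fgf1 the listed start lies 102, 282 and 62393 bases inside the gene's RefSeq span. Of the 10 growth factors, 9 had an entry, and 4 of these (44.4%) held at least 1 match, against 36.7% of all 33469 entries. The 4 were Vegfb, Hdgf, Pdgfb and Fgf2. The windows of Vegfa and Hdgf and a short stretch of Vegfb are shown because these genes had enough counts for a test and differ in their matches. Capitals mark the matches, and each line reads 5′ to 3′ on the strand of the gene.
Vegfa, plus strand, chr9:22452604-22452853: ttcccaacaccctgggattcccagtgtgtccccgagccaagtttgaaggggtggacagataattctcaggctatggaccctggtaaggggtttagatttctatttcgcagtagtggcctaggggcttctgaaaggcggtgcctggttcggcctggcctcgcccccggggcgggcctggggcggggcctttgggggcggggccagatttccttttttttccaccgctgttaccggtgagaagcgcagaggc
Vegfb, minus strand, chr1:213607203-213607232: cgggtggggagcGCGTGtttaggtcacatg
Hdgf, plus strand, chr2:175668040-175668289: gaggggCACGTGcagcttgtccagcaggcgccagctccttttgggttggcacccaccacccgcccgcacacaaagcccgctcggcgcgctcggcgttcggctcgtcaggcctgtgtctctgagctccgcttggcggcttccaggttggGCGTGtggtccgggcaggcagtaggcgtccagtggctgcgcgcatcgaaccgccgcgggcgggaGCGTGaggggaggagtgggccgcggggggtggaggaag

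RefSeq lists 2 promoter entries for Vegfa, and a single window is given here. That Vegfa window held 0 matches, which says only that these letters are not within it. Vegfb held 1 match, 68 bases before its listed start and within the RefSeq span of the gene, as is the whole stretch shown. Hdgf held 4, of which a pair comes from CACGTG, whose letters read the same on both strands and overlap. The windows of Ptn and Pdgfa held 0. A match is a run of letters, and no binding was measured here.

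The groups differed in depth. Mild-hypo-OPC libraries had total counts of 4111669 to 9022324 (median 4915675), and standard OPC libraries had 1356079 to 2797513 (median 1952621), without overlap. Ribosomal RNA genes took 17.4% to 25.3% of all counts in the former and 23.9% to 38.4% in the latter. The part of these differences in the results below was examined only by the alternative settings given with them. Values are CPM, the counts scaled to a library total of 1e+06 over the genes kept, adjusted by trimmed mean of M-values (TMM).

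Transcripts of OPC markers and of oligodendrocyte markers were both present in the cultures. The OPC markers in the table were Pdgfra, Cspg4, Sox10, Olig1, Olig2, Ptprz1 and Gpr17. These 7 genes summed to 4004 ± 250 CPM in mild-hypo-OPCs and 3611 ± 279 in standard OPCs (SD, n = 6). Gpr17, a receptor of committed precursors, had the highest mean of the 7, at 1324 ± 108 and 967 ± 94.3 CPM. It was the 1 gene of the 7 called higher in mild-hypo-OPCs (log2 fold change 0.45). Among all genes tested, 7.00% were called higher by the edgeR test given below. The 6 oligodendrocyte markers counted here, among which Mbp had the highest CPM without regard to length, summed to 8699 ± 459 CPM (8249 to 9432) in mild-hypo-OPCs and 6988 ± 1140 CPM (5349 to 8464) in standard OPCs, with overlap. Of these, 3 were called higher (Mag, Myrf and Cldn11), against the same 7.00%. Endothelial markers, which would mark the cells that VEGF receptors are known for, summed to 0.205 ± 0.129 and 0.403 ± 0.527 CPM, and Cdh5, Tek and Emcn had 0 counts in all 12 libraries.

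With TMM scaling, Vegfb and Ptn fell in mild-hypo-OPCs and no growth factor was called higher. Vegfa, Pdgfa and Hdgf were measured well enough for a test and did not pass it. The remaining 5 (Vegfc, Pdgfb, Mdk, Fgf1 and Fgf2) did not reach 10 CPM in any library. Of these, Pdgfb and Fgf2 had higher mean CPM in mild-hypo-OPCs, without passing a test. By edgeR's quasi-likelihood test with Benjamini-Hochberg adjustment at 0.05, 0 of the 5 tested members were called higher and 2 lower, against 7.00% and 17.0% of the 8938 genes tested (24.0% in both directions). At an unadjusted p under 0.05 the same 2 were found, among 3243 of the 8938 genes tested, and limma-voom and DESeq2 each gave 0 higher and 2 lower. The median log2 fold change was -0.19 over the 5 members and -0.00 over all genes tested.

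**Figure D1:**
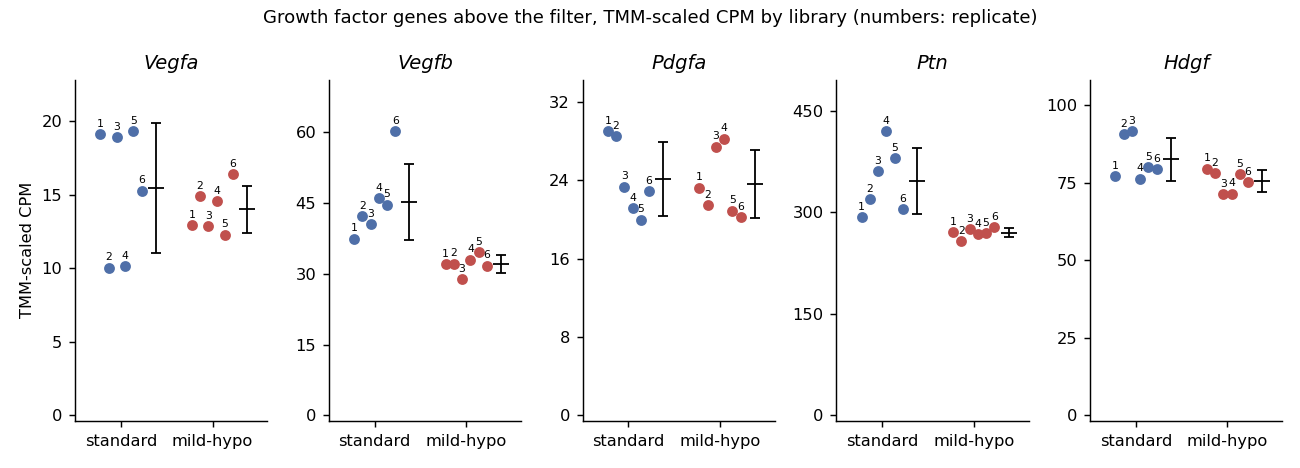
TMM-scaled CPM of the 5 tested growth factors (vertical axes, linear, from 0) in each mild-hypo-OPC and standard OPC library, with 1 point per library and bars for the mean and SD of 6 libraries. For Vegfb and Ptn every mild-hypo-OPC point lies below every standard OPC point, whereas the points of Vegfa, Pdgfa and Hdgf overlap.

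Vegfb encodes VEGF-B, a ligand of VEGF receptor 1 that is known for roles in the survival of cells and in the heart more than for vessel sprouting. Its level ran from 28.9 CPM through a median of 32.1 to 34.7 in mild-hypo-OPCs, on 161 to 307 counts per library. In standard OPCs it ran from 37.5 through 43.5 to 60.3 CPM, on 50 to 98 counts. Every mild-hypo-OPC library was thus below every standard OPC library, a separation shown by 8.35% of all genes tested. The log2 fold change was -0.47 (SE 0.11, 95% interval -0.69 to -0.25, edgeR adjusted p = 0.00302), a change of -28.0% (interval -38.1% to -16.1%). The highest value, 60.3 CPM, belonged to standard OPC replicate 6, and without that library the log2 fold change was -0.38 with an edgeR adjusted p of 0.00772.

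Vegfa encodes VEGF-A, the main ligand of vessel growth. It ran from 12.3 CPM through a median of 13.7 to 16.4 in mild-hypo-OPCs, on 71 to 124 counts, and from 10.03 through 17.1 to 19.3 in standard OPCs, on 11 to 50 counts. The standard OPC libraries lay on both sides of the mild-hypo-OPC range, 2 below its lowest value and 3 above its highest. The log2 fold change was -0.19 (SE 0.16, 95% interval -0.53 to 0.16, edgeR adjusted p = 0.44). In percent this interval ran from -30.6% to 11.4%.

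Vegfc, the ligand of lymphatic vessels, was found at 1 to 12 counts per library in mild-hypo-OPCs and at 1 to 3 in standard OPCs. No difference was detected. In a fit without the filter on low counts, in which 12.9% of 17391 genes were called, its log2 fold change was -0.88 with a wide interval, from -2.0 to 0.24 (edgeR adjusted p = 0.329).

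Pdgfa, whose product is also a component of the medium, ran from 20.3 CPM through a median of 22.4 to 28.3 in mild-hypo-OPCs, and from 19.99 through 23.1 to 29.1 in standard OPCs. The ranges lie almost on top of each other. The log2 fold change was -0.07 (SE 0.13, 95% interval -0.34 to 0.20, edgeR adjusted p = 0.752). In percent the interval ran from -20.7% to 15.1%. Pdgfb, the chain of PDGF-BB that endothelial cells use to recruit pericytes, had 5 to 12 counts per library in mild-hypo-OPCs, and standard OPCs, which were sequenced less deeply, had 0 to 2. Scaled to CPM, 3 of 6 mild-hypo-OPC libraries were above the highest standard OPC library. The log2 fold change without the filter was 0.81 (95% interval -0.33 to 1.95, edgeR adjusted p = 0.387).

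Ptn encodes pleiotrophin, which OPCs and other neural cells secrete. It had 1309 to 2595 counts per library in mild-hypo-OPCs, and standard OPCs had 399 to 765. It ran from 258.1 CPM through a median of 269.8 to 278.0 in mild-hypo-OPCs and from 292.5 through 340.2 to 420.6 in standard OPCs, without overlap. Of all genes tested, 8.35% were without overlap. The spread was narrow in mild-hypo-OPCs, with a coefficient of variation of 2.55%, and wider in standard OPCs, at 14.3%. The log2 fold change was -0.36 (SE 0.09, 95% interval -0.54 to -0.18, edgeR adjusted p = 0.00563), a change of -21.9% (interval -31.1% to -11.5%). In bulk RNA, fewer cells of a type and less RNA per cell cannot be told apart.

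Mdk encodes midkine, the only other member of the pleiotrophin family. It had 10 to 29 counts per library in mild-hypo-OPCs, and standard OPCs had 2 to 15. The CPM was 3.14 ± 1.19 and 3.96 ± 1.94 (SD, n = 6), with overlapping ranges. Its log2 fold change without the filter was -0.32 (95% interval -0.99 to 0.36, edgeR adjusted p = 0.596). Hdgf encodes a heparin-binding growth factor that is also found in the nucleus. It ran from 71.4 CPM through a median of 76.5 to 79.6 in mild-hypo-OPCs and from 76.4 through 79.7 to 91.8 in standard OPCs. Of the mild-hypo-OPC libraries, 3 of 6 were below every standard OPC library and the others overlapped with them. The log2 fold change was -0.13 (SE 0.08, 95% interval -0.29 to 0.03, edgeR adjusted p = 0.238).

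The FGF ligands were scarce as transcripts. Fgf2, the other factor of the medium, had 3 to 8 counts per library in mild-hypo-OPCs, and standard OPCs had 0 to 3. Its log2 fold change without the filter was 0.27 (95% interval -0.96 to 1.495, edgeR adjusted p = 0.803). Fgf1, which binds all FGF receptors, had 1 count in all 12 libraries, in a standard OPC library. With 3 counts taken as the limit, its 0 counts in mild-hypo-OPCs allow up to 0.0905 CPM of the group's total count, without TMM, a limit that covers counting error only, and no fold is given for so few counts. Of the 5 members below the filter, 0 were called without it, and 0 had an unadjusted p under 0.05 in the same edgeR fit.

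**Figure D2:**
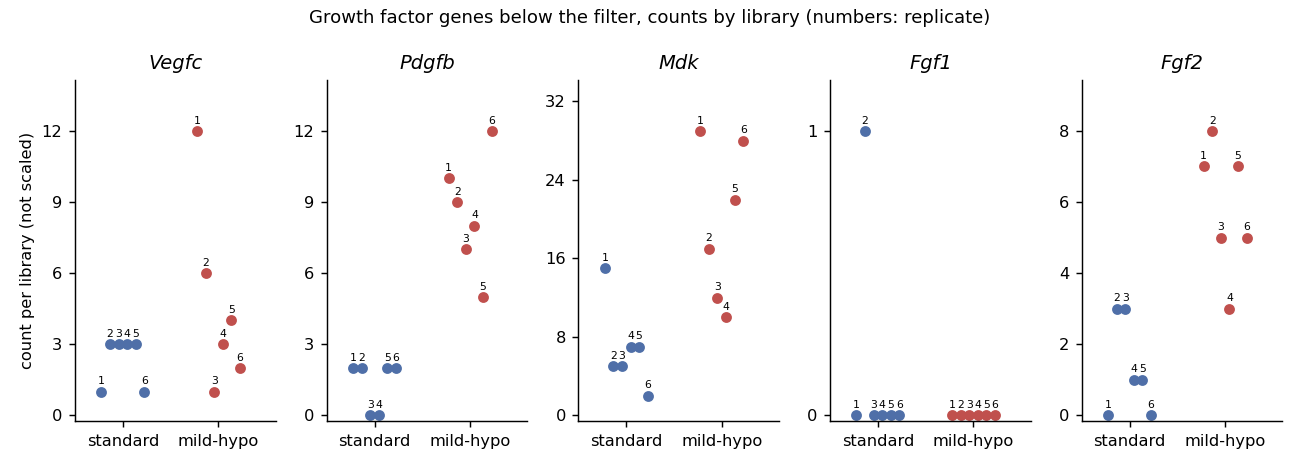
Raw counts per library (vertical axes, linear) of the 5 growth factors that did not reach 10 CPM, with 1 point per library. Counts stay at 29 or below throughout, and mild-hypo-OPC libraries were sequenced more deeply, so raw counts are not a comparison of levels between the groups.

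**Figure D3:**
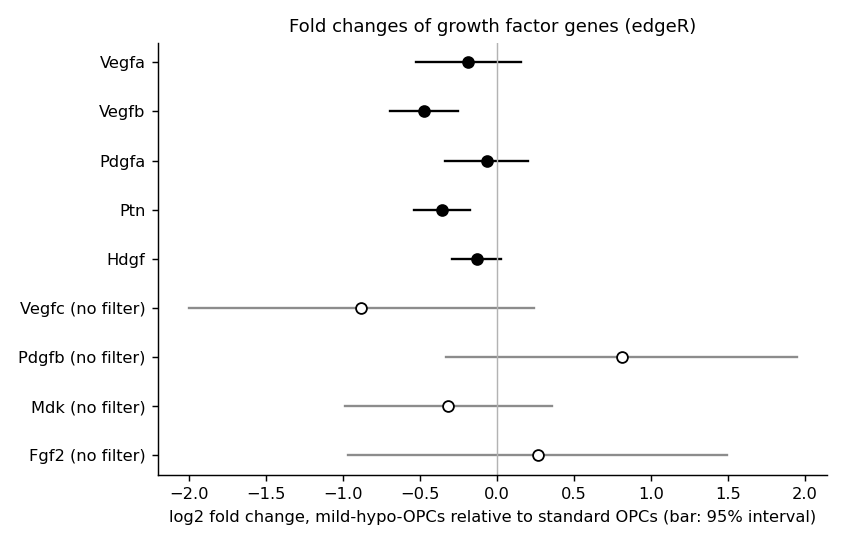
Log2 fold change of mild-hypo-OPCs against standard OPCs for 9 growth factors, with 95% intervals as bars. Filled points come from the edgeR fit with the filter and open points from the fit without it, and Fgf1 has no fold. The intervals of Vegfb and Ptn lie wholly below 0.

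The scaling between libraries set the zero point of these folds. With library size alone, without TMM, the median over all genes was 0.43 on the log2 scale, 5515 genes were called higher, and the values were -0.04 for Vegfb, 0.09 for Ptn and 0.24 for Vegfa (none called). Under that scaling Pdgfa (0.37, edgeR adjusted p = 0.0243) and Hdgf (0.31, edgeR adjusted p = 0.00578) were called higher although they were 0.06 and 0.12 below the median of all genes. Relative to the median, Vegfb was at -0.47 and Ptn at -0.34 there. Over 23 settings, Vegfa, Vegfb, Ptn and Hdgf lay below the median of all genes in 23 and Pdgfa in 22, the exception being the fit without standard OPC replicate 1. The settings refit the same libraries, so this agreement is not independent evidence. Vegfa, Pdgfa and Hdgf were not called lower in any of them. With ribosomal RNA genes removed before filter, TMM and fit, 9737 genes were tested. In that fit Vegfb was at -0.45 (edgeR adjusted p = 0.00377) and Ptn at -0.33 (edgeR adjusted p = 0.00915). With the log2 total count as a covariate, 0 members and 43 genes in all were called lower and 0 genes higher, and Vegfb was at -0.19 and Ptn at -0.13. Since the totals of the groups do not overlap, depth and condition cannot be told apart in that fit.

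**Figure D4:**
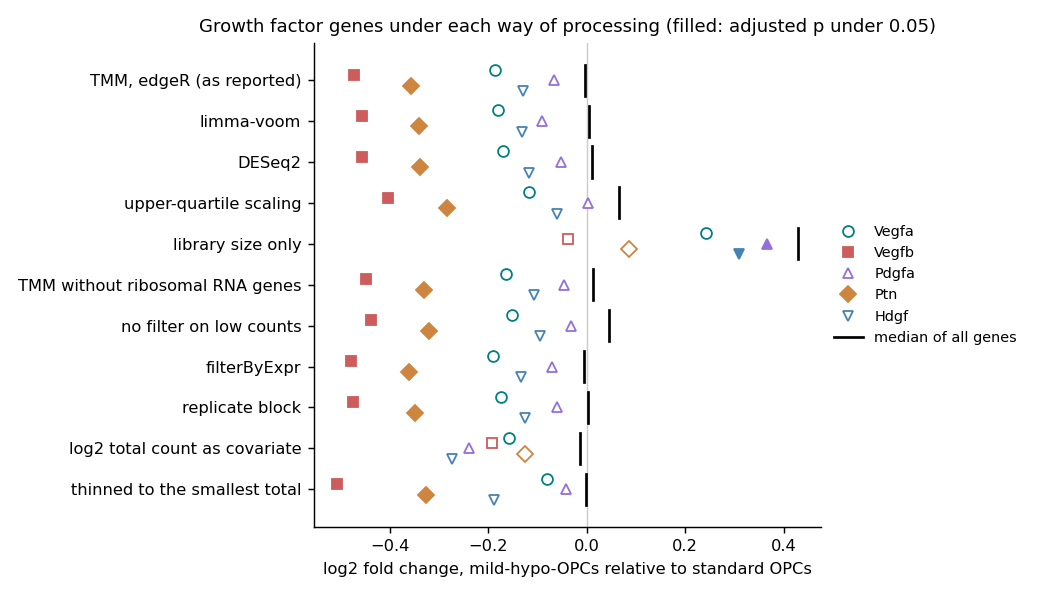
Log2 fold change of each tested growth factor (horizontal axis) under each setting of scaling, filter and test (rows), with filled points past an adjusted p of 0.05 and vertical ticks at the median of all genes. Vegfb and Ptn were called lower in all rows except library size only and the log2 total count covariate.

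Ratios of 2 growth factors within a library do not depend on scaling. Of the ratios planned, 4 could be computed, and the pair with Mdk rests on as few as 2 counts in a library. The log2 ratio of Vegfa to Vegfb was -1.20 ± 0.19 in mild-hypo-OPCs and -1.56 ± 0.54 in standard OPCs (SD, n = 6), and all 6 mild-hypo-OPC libraries were above the standard OPC mean. The difference of 0.37 did not pass a two-sided exact permutation test (p = 0.143, adjusted over 4 ratios 0.571, the smallest p possible being 0.00216). The differences were -0.07 for Vegfa to Pdgfa, 0.00 for Mdk to Ptn and -0.22 for Mdk to Hdgf, each with an adjusted p of 1 by the exact permutation test. Among all 10 pairs of the 5 tested members, added after the values were seen, Vegfb to Hdgf had the smallest p. That log2 ratio was -1.24 ± 0.08 in mild-hypo-OPCs and -0.88 ± 0.29 in standard OPCs, and the difference of -0.36 had an exact permutation p of 0.00649, adjusted over the 10 pairs 0.0649.

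The receptors and co-receptors of these ligands were counted as a list of 23 genes. Of 13 tested, 3 were higher and 1 lower in mild-hypo-OPCs by edgeR's adjusted p, against 7.00% and 17.0% of all genes tested, and the median log2 fold change was 0.18. Fgfr2, a receptor of FGF ligands, ran from 80.9 CPM through a median of 87.3 to 96.0 in mild-hypo-OPCs and from 47.9 through 69.4 to 80.8 in standard OPCs. The groups touch closely but do not overlap (log2 fold change 0.34, SE 0.10, edgeR adjusted p = 0.0207). Fgfr1, the receptor that FGF-2 is best known to use in OPCs, was at 122.8 ± 5.17 and 95.9 ± 17.2 CPM (0.34, SE 0.10, edgeR adjusted p = 0.0142), with overlap. Gpc1, a heparan sulfate proteoglycan that presents FGF to its receptors, was at 134.5 ± 6.60 and 102.2 ± 20.7 CPM (0.38, edgeR adjusted p = 0.013). With every library thinned to the smallest total, Fgfr2 was at 0.30 with an edgeR adjusted p of 0.0893.

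Lrp1, an endocytic receptor that binds midkine, pleiotrophin and PDGF-BB among many ligands, fell. Its level ran from 229.0 CPM through 233.5 to 308.4 in mild-hypo-OPCs and from 318.9 through 392.8 to 508.0 in standard OPCs, without overlap (log2 fold change -0.68, SE 0.12, edgeR adjusted p = 0.000558). With Fgfr2, 2 of the 13 tested were without overlap, against 8.35% of all genes tested. Ptprz1 was at 856.8 ± 114 and 944.9 ± 148 CPM (-0.14, edgeR adjusted p = 0.374). Pdgfra, the receptor of PDGF-AA, was at 236.3 ± 26.8 and 229.4 ± 33.8 CPM, with a 95% interval of -0.16 to 0.25 for its log2 fold change of 0.05 (edgeR adjusted p = 0.765). The 3 VEGF receptor genes were near 0. Summed over the 6 libraries of mild-hypo-OPCs and of standard OPCs, Flt1 had 2 and 3 counts, Kdr 18 and 2, and Flt4 1 and 0. Pdgfrb, a pericyte receptor, had 21 counts in mild-hypo-OPCs and 0 in standard OPCs, where the same limit of 3 counts is 0.252 CPM of the group's total count, without TMM. It had 2 to 6 counts in each mild-hypo-OPC library and was called higher in the fit without the filter (edgeR adjusted p = 0.0312).

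**Figure D5:**
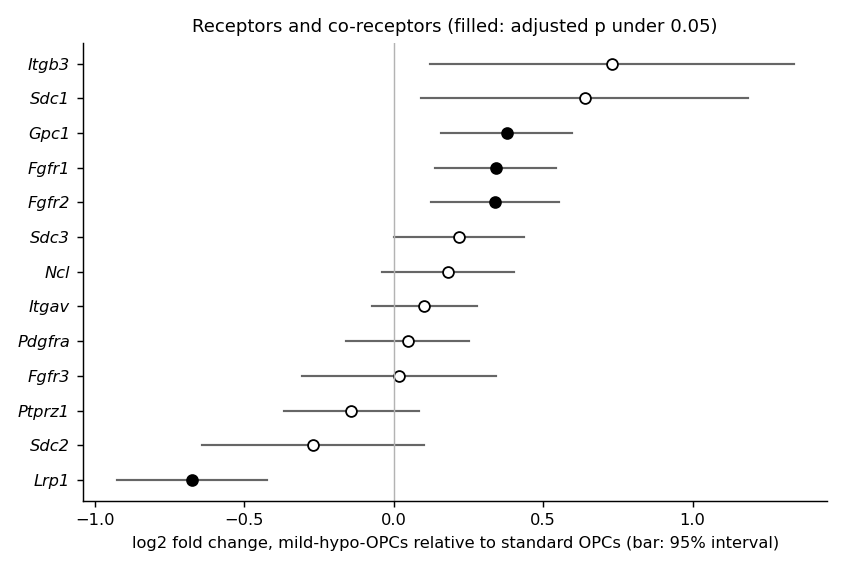
Log2 fold change of mild-hypo-OPCs against standard OPCs for the 13 tested receptors and co-receptors, with 95% intervals as bars and filled points for genes past an edgeR adjusted p of 0.05. Of the called genes, Fgfr1, Fgfr2 and Gpc1 lie above 0 between 0.34 and 0.38, and Lrp1 lies below at -0.68. Itgb3 (0.73, edgeR adjusted p = 0.0737) and Sdc1 (0.64, edgeR adjusted p = 0.0819) lie higher, with intervals above 0, and were not called.

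A list of 41 other secreted growth factors had 14 genes tested, 2 higher and 1 lower (median log2 fold change 0.12). Of all genes tested, 7.00% were called higher and 17.0% lower. Mydgf, a factor secreted by myeloid cells, ran from 32.7 CPM through a median of 36.5 to 41.3 in mild-hypo-OPCs and from 46.0 through 60.4 to 73.3 in standard OPCs. The groups did not overlap, as for 8.35% of all genes tested, and the log2 fold change was -0.69 (SE 0.11, edgeR adjusted p = 0.000264). Wnt7b, a ligand of brain vessel growth, was at 32.0 ± 1.73 and 25.3 ± 4.89 CPM (0.36, edgeR adjusted p = 0.0272). Its call was lost without standard OPC replicate 2 (edgeR adjusted p = 0.0532) or replicate 3 (0.0717), and after thinning (0.212), with log2 fold changes of 0.34, 0.27 and 0.31. Grn, the gene of progranulin, was at 100.7 ± 5.50 and 82.5 ± 11.8 CPM (0.27, edgeR adjusted p = 0.0328). Its call was lost without mild-hypo-OPC replicate 2 (edgeR adjusted p = 0.0542) or standard OPC replicates 3 (0.0645), 4 (0.0731), 5 (0.053) or 6 (0.0694), with log2 fold changes from 0.22 to 0.28. Of the genes below the filter, Tgfb3, with 241 and 34 counts over the groups, was called higher in the fit without it (log2 fold change 0.98, edgeR adjusted p = 0.0101). Vegfd and Ntf3 had 0 counts in all 12 libraries.

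A list of 29 inhibitors, matrix carriers and binding proteins had 18 genes tested, 2 higher and 1 lower (median 0.10), against the same 7.00% and 17.0%. Igfbp5, which binds insulin-like growth factors, had the largest change in the list. It ran from 20.7 CPM through a median of 24.9 to 30.7 in mild-hypo-OPCs and from 8.34 through 10.7 to 17.6 in standard OPCs, without overlap (log2 fold change 1.04, SE 0.17, edgeR adjusted p = 0.000274). The share of all genes tested without overlap was 8.35%. Igfbp2 was lower, at 58.1 ± 7.66 against 79.2 ± 18.8 CPM (-0.43, edgeR adjusted p = 0.0282). The call of Igfbp2 was lost without any of mild-hypo-OPC replicates 1 to 5 or standard OPC replicates 3 to 6, with edgeR adjusted p from 0.0622 to 0.0803 and log2 fold changes from -0.39 to -0.35. Bcan, the gene of the proteoglycan brevican, was at 452.3 ± 25.8 and 386.4 ± 21.2 CPM (0.23, edgeR adjusted p = 0.0257). With the replicate number as a block, the call of Bcan was lost at about the same fold (0.23, edgeR adjusted p = 0.0561).

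Textbook HIF targets are given beside Vegfa. Of 23 listed, 17 were tested, 2 were higher and 3 lower (median 0.09), a split close to the 7.00% and 17.0% of all genes tested. P4ha1, a collagen prolyl hydroxylase, ran from 46.5 CPM through 47.5 to 48.8 in mild-hypo-OPCs and from 27.6 through 33.8 to 40.1 in standard OPCs (log2 fold change 0.47, SE 0.09, edgeR adjusted p = 0.00129). Ero1a, an oxidase of the endoplasmic reticulum, was at 23.0 ± 2.29 and 16.6 ± 4.0 CPM (0.43, edgeR adjusted p = 0.0283), and its call was lost without mild-hypo-OPC replicate 1 (edgeR adjusted p = 0.0523) or standard OPC replicates 3 (0.0641), 4 (0.0635) or 6 (0.0652), and after thinning (0.11), with log2 fold changes from 0.36 to 0.41. The mitophagy receptors Bnip3 (-0.69, edgeR adjusted p = 0.000554) and Bnip3l (-0.46, edgeR adjusted p = 0.000478) and the mitochondrial Higd1a (-0.81, edgeR adjusted p = 0.000283) fell without overlap. P4ha1 rose without overlap, so 4 of the 17 were separate, against 8.35% of all genes tested. Ldha, a glycolytic enzyme, was at 0.04 (edgeR adjusted p = 0.799). The next count leaves out the cell type markers and the genes most like each tested member, which are given below. Together with Vegfb and Ptn, 17 named genes were called, and 0 of these 17 with the log2 total count as a covariate. In that fit the SEs were larger, and the log2 fold change was -0.67 for Lrp1 (SE 0.26), 0.66 for Wnt7b (SE 0.23), 0.39 for P4ha1 (SE 0.20), 0.38 for Igfbp5 (SE 0.27) and -0.01 for Higd1a (SE 0.20). The part of depth in these calls cannot be told apart from that of the condition. With every library thinned to the smallest total, only Fgfr2, Wnt7b and Ero1a of the 17 lost their calls. Their log2 fold changes were then 0.30, 0.31 and 0.41. In the thinned fit Vegfb was at -0.51 (edgeR adjusted p = 0.0263), Ptn at -0.33 (0.0175), Lrp1 at -0.65 (0.000326) and Higd1a at -0.85 (0.000123). With library size only, the calls of Lrp1 (-0.22, edgeR adjusted p = 0.0833), Mydgf (-0.26, 0.0698), Bnip3 (-0.26, 0.081), Bnip3l (-0.02, 0.888) and Igfbp2 (0.02, 0.927) were lost as well, against a median of 0.43.

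Some markers of other cells also differed between the groups. Astrocyte markers summed to 861.9 ± 49.3 CPM in mild-hypo-OPCs and 801.2 ± 33.0 in standard OPCs, with overlap. Of 6 tested, 2 were called higher (Aqp4 and Slc1a3), against 7.00% of all genes tested, and Gfap had the highest CPM. Neuron markers summed to 139.5 ± 6.72 and 94.2 ± 13.7 CPM, without overlap. Of 4 tested, 1 was called higher, against the same 7.00%, namely Tubb3 (0.72). Tubb3 made up most of both sums, at 98.9 ± 6.70 and 59.4 ± 11.0 CPM. The 3 others tested had positive log2 fold changes and were not called. Below the filter, Rbfox3 had a lower mean in mild-hypo-OPCs, at 2.67 ± 0.74 against 3.36 ± 2.27 CPM. Snap25 was at 6.52 ± 0.75 and 6.09 ± 0.49 CPM. Microglia markers summed to 46.0 ± 6.41 and 36.0 ± 8.39 CPM. Of 3 tested, Csf1r, with the highest CPM, was called higher (0.61) and Tyrobp lower (-0.69). Of all genes tested, 7.00% were called higher and 17.0% lower. Mural and fibroblast markers summed to 4.67 ± 0.65 and 2.99 ± 0.71 CPM with none above the filter. In the fit without it, Pdgfrb was called higher, as given above, and Dcn, the gene of decorin, was called lower on 0 and 4 counts (edgeR adjusted p = 0.0268), while Rgs5 and Lum had 0 counts in all 12 libraries. The part of these cells in the growth factor values was not tested.

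The genes whose levels followed each tested growth factor most closely over the 12 libraries were listed by Pearson's r of log2 CPM, as a description over libraries that share depth and group. For Ptn they were Pdcd10 (0.97), Nifk (0.96) and Tfdp1 (0.95). For Vegfb they were Cox6b1 (0.94), Adck5 (0.93) and Mrps10 (0.93). With the group means removed, r was 0.91 for Ptn and Pdcd10 and 0.80 for Vegfb and Cox6b1, in the same libraries that chose these genes. For Hdgf they were Dlgap1 (0.94), Rgs2 (0.89) and Cers1 (0.87), for Vegfa Ddx24 (0.88), Ccsap (0.84) and Fpgs (0.84), and for Pdgfa Slc7a3 (0.81), Glb1 (0.78) and Hmgcs1 (0.77).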

How the data were processed

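RNA of rat OPCs was sequenced in 12 strand-specific libraries. Per the submitters' processing notes and methods, the authors trimmed reads with Trimmomatic 0.36, checked them with FastQC 0.11.9, aligned them to mRatBN7.2 with STAR 2.7.9a and used RSEM 1.3.3 for quantification. The deposited values are unnormalized counts, whole numbers, for each Ensembl gene. How the estimates became whole numbers is not given in the sources used here. The table holds 0 columns of other samples.

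Samples were grouped by their labels. Genes were kept where any library exceeded 10 CPM, scaled by TMM and tested in R 4.3.3 with edgeR 4.0.16 (glmQLFit, glmQLFTest, condition as the only term, all 12 libraries, Benjamini-Hochberg adjustment, 0.05). The SE is the one implied by the F statistic. The fit ran on the whole table and was tested on simulated data. Ratios used a pseudocount of 0.5 and exact permutation tests in SciPy 1.17.1. A count of 3 was the floor for a fold. The alternatives were limma-voom (limma 3.58.1), DESeq2 1.42.0, other scalings, no filter and edgeR's filterByExpr, the replicate number as a block, the log2 total count as a covariate, thinning to the smallest total of 1356079 counts, and leaving out each library. Figures were drawn with matplotlib 3.10.9.

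In all 15 pairs of libraries per group, the counts were further apart than sampling noise. The members, lists and tests were chosen with earlier results of these data known. Named genes are all members, list genes past the threshold, otherwise the list's gene of highest CPM, and the 3 genes most like each tested member. Psap is given in the closing section, and 1 planned marker gene is not reported here. VEGF and PDGF receptors, Itgb3, Sdc1, Tgfb3, Dcn, Rbfox3, Snap25, genes at 0 counts and the pair Vegfb to Hdgf were named after their values were seen. Transcript length was not used here, so a highest CPM is not a ranking of transcript levels. Promoters came from RefSeq (GRCr8), a different build from that of the counts.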

Additional observations from a re-analysis of the deposited data

Results flagged for a closer look

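Of 28 groups of 6 libraries examined, 2 held a library that stood apart from the rest, and chance alone would pick about 1 in 20. Mild-hypo-OPC replicate 1 had a total count of 9022324, far above the others of its group. Vegfb in standard OPC replicate 6 was at 60.31 CPM, against at most 46.0 CPM in the other standard OPC libraries, and Vegfb stayed lower in mild-hypo-OPCs without that library (log2 fold change -0.38, edgeR adjusted p = 0.00772).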

How the results depend on the processing

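Of 506 single-gene values under alternatives, 442 kept their direction and side of the threshold, 45 lost the call, 7 gained it and 12 changed sign. A value that changed sign is counted only there, even where its call was also lost or gained. Leaving out each library gave 436 to 823 genes higher and 1165 to 1664 lower, with 0 members higher and 2 lower throughout. The count of higher genes was 1136 with upper-quartile scaling, 406 after thinning, 5515 with library size only and 0 with the log2 total count as a covariate, and that of lower genes was 405 and 43 in the latter 2. Members were then 2 higher and 0 lower with library size only, and 0 lower with the covariate. With library size only the sign changed for Vegfa (0.24), Pdgfa (0.37), Ptn (0.087), Hdgf (0.31), Igfbp2 (0.015) and Ptprz1 (0.31), with the whole median at 0.43. With the covariate it changed for Fgfr2 (-0.048), Ero1a (-0.13) and Igfbp2 (0.21), after thinning for Ldha (-0.001), and for Pdgfa with upper-quartile scaling (0.002) and without standard OPC replicate 1 (0.006, the range over all left-out libraries being -0.118 to 0.006). Psap, at 0.19 with an edgeR adjusted p of 0.0809, was called by limma-voom (adjusted p = 0.0481), DESeq2 (0.0191), upper-quartile scaling (0.0235) and library size only (2.36e-05), and when standard OPC replicate 2 (0.0294) or mild-hypo-OPC replicate 6 (0.0454) was left out. With library size only, Ldha (0.48, edgeR adjusted p = 0.000556) and Ptprz1 (0.31, edgeR adjusted p = 0.0149) were called higher. Igfbp2 lost its call by limma-voom (-0.39, adjusted p = 0.0504) and upper-quartile scaling (-0.35, edgeR adjusted p = 0.0536). The cause of these changes was not tested. The log2 ratio of Mdk to Ptn was -0.083 with a pseudocount of 1 and -0.19 after thinning, and ranged from -0.17 to 0.17 when libraries were left out. That of Vegfa to Pdgfa then ranged from -0.24 to 0.051, Vegfa to Vegfb from 0.25 to 0.49, and Mdk to Hdgf from -0.42 to -0.03. Correlations between same-numbered libraries ran from -0.28 to 0.30, and 1 of 6 numbers matched best with its own. These values show no clear pairing by replicate number and are too few to exclude one. The replicate block gave 572 genes higher and 1471 lower, with 0 members higher and 2 lower. The 23 named genes followed over the alternatives leave out the marker lists and the genes most like each member. Among these 23, only Bcan lost its call, at a log2 fold change of 0.23 (edgeR adjusted p = 0.0561). Depth limits the 5 members below 10 CPM, at 29 counts or fewer per library.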
